A study of Mus musculus with 3 samples.

Results

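Of 127 bulk RNA libraries from a knockdown screen in reprogramming mouse fibroblasts, 6 compared an siRNA pool against Prkdc (siPrkdc, 3 libraries) with a non-targeting siRNA (nt, 3 libraries). The members were taken by the condition names of the count columns, with 1 library of each condition in each of 3 replicates. All libraries came from wild-type BL6 mouse embryonic fibroblasts (MEFs, primary fibroblasts at an early passage) that carried a doxycycline-inducible lentiviral cassette (OSKM) of 4 reprogramming factors, namely Oct4, Klf4, Sox2 and Myc, together with the transactivator rtTA. Both conditions received siRNA at 40 nM with a lipid reagent, were re-plated the next day in doxycycline medium that held LIF, ascorbic acid, a GSK3 inhibitor (Chiron) and a TGF-β receptor inhibitor (Alk5i), and were read at reprogramming day 6. The 32 other siRNA conditions of the screen (95 libraries) went through the same steps. A further control, Mock (5 libraries), was a mock transfection, and what its mix held is not given in the sources used here. An untransfected time course covered day 0 to day 6 with 3 libraries a day. The 32 included siBrca1, siBard1 and sip53, whose targets also act in the response to DNA damage. The cultures were mixed populations rather than clones, so fewer cells of a type and less RNA per cell cannot be told apart. The paper describes transfections in triplicate and calls the 3 sequencing replicates independent. The labels do not say whether they came from separate fibroblast preparations, so the p-values measure only the spread between these libraries.

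Prkdc encodes DNA-PKcs, a very large kinase that is recruited to broken DNA ends by the Ku70 and Ku80 proteins (Xrcc6 and Xrcc5) and drives non-homologous end joining, the pathway that ligates broken ends without a template. The complex is also known for its role in joining antigen receptor gene segments in lymphocytes and for phosphorylating histone H2AX, p53 and other proteins of the damage response. Brca1 and Bard1 form a ubiquitin ligase that acts in homologous recombination, which repairs the same breaks from a template, and p53 is the transcription factor that most DNA damage signals converge on.

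The study pooled 3 siRNAs for each target. The sequences of 2 of the 3 against Prkdc were used here, and both lie near the 5′ end of the Prkdc coding sequence (ENSMUSG00000022672.8, chr16:15637866-15842235, plus strand, GRCm38). They are shown as part of the treatment, so that the place they target in the transcript can be seen. The guide strand is given 5′ to 3′ with its seed (bases 2 to 8) in capitals and the overhang included.

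siRNA 68758 guide strand: uCUACAAUcacgaaagucctc

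siRNA 68854 guide strand: aAGAGAGUaaugcauaacctt

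The 19 bases of the target of siRNA 68758 are at positions 228 to 246 of the 12647-nucleotide transcript ENSMUST00000023352 and span the junction of exons 2 and 3. Those of siRNA 68854 are at positions 297 to 315, within exon 3 (chr16:15648953-15648971). The libraries were made by CEL-Seq2, which reads the 3′ end of polyadenylated RNA, so the counts of this gene come from the opposite end of the transcript.

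Prkdc itself was too sparsely sampled to check the knockdown. The 3 siPrkdc libraries held 1, 1 and 1 Prkdc counts, the nt libraries 2, 0 and 3, and the 5 Mock libraries 0, 0, 0, 1 and 0. The 3 counts found stood against 1.99 expected from the share of Prkdc in the 103 other transfected libraries, a ratio of 1.51 with an exact Poisson 95% interval of 0.311 to 4.41 that covers counting error only. Against the nt libraries alone the ratio was 0.761, with an interval of 0.157 to 2.22. A lowering of Prkdc RNA was not detectable at this depth, so no value here shows that the libraries labelled siPrkdc had lost the transcript.

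The siPrkdc libraries held 48070, 64356 and 127079 molecules counted by unique molecular identifier (UMI), the nt libraries 75100, 80136 and 143156, and the Mock libraries 38925 to 83089. Fibroblast identity was checked against 10 fixed markers, among them the collagens Col1a1, Col1a2 and Col3a1 and the surface protein Thy1. All 10 had counts, and their summed level was 2458 to 2659 CPM (counts relative to the scaled library size) in siPrkdc, 1887 to 2248 CPM in nt and 2209 to 3027 CPM in Mock. In the siPrkdc libraries 2 of 10 immune markers had counts (summed to 0 to 39.3 CPM), 2 of 7 endothelial (9.88 to 53.5 CPM), 3 of 8 muscle (0 to 49.4 CPM) and 1 of 7 red cell markers (0 to 59.0 CPM), while Ptprc, Pecam1, Myod1 and Hba-a1 were at 0. In nt these lists summed to at most 29.9, 33.3, 99.9 and 89.7 CPM, and in Mock to at most 51.6, 28.8, 77.4 and 28.8 CPM. Of the 8 neural markers 5 had counts in siPrkdc (Sox10 and Gfap were at 0), and they summed to 188 to 454 CPM in siPrkdc, 165 to 216 CPM in nt and 181 to 275 CPM in Mock. The part of other cell types in the results was not tested.

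A small set of genes separated siPrkdc from nt. Of 3013 genes tested, 53 (1.76%) passed an adjusted p of 0.05, 17 of them higher (0.564%) and 36 lower (1.19%) in siPrkdc, by edgeR's quasi-likelihood test with Benjamini-Hochberg adjustment and the replicate as a block. Among the 33 siRNA conditions compared with nt in the same way, siPrkdc was tied 12th for the number of genes called. Of the 17 higher genes, 6 were predicted genes made of a shared tandem repeat and 4 belonged to the mitochondrial genome or to nuclear copies of it. Of the 36 lower genes, 6 encoded ribosomal proteins and 10 were copies of ribosomal protein genes. In 41 of the 53 (16 of the 17 higher, 25 of the 36 lower) the siPrkdc and nt libraries did not overlap, beside 6.77% of all tested genes without overlap and higher and 6.21% without overlap and lower in siPrkdc. With another scaling of library sizes (edgeR's relative log expression factors) 52 genes passed, 27 higher and 25 lower, and without the replicate block 12 passed. Leaving out replicate 1, 2 or 3 from the whole fit left 25, 25 and 32 genes. Of the 53, 42 did not pass without at least 1 of the replicates. The 11 that passed without each were Gm26870, Gm10717, Gm10800, Gm10801, Gm21738, Gm10222, mt-Nd4l and Hmgn1 (higher) and S100a6, Gm6204 and Gm10036 (lower).

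**Figure D1:**
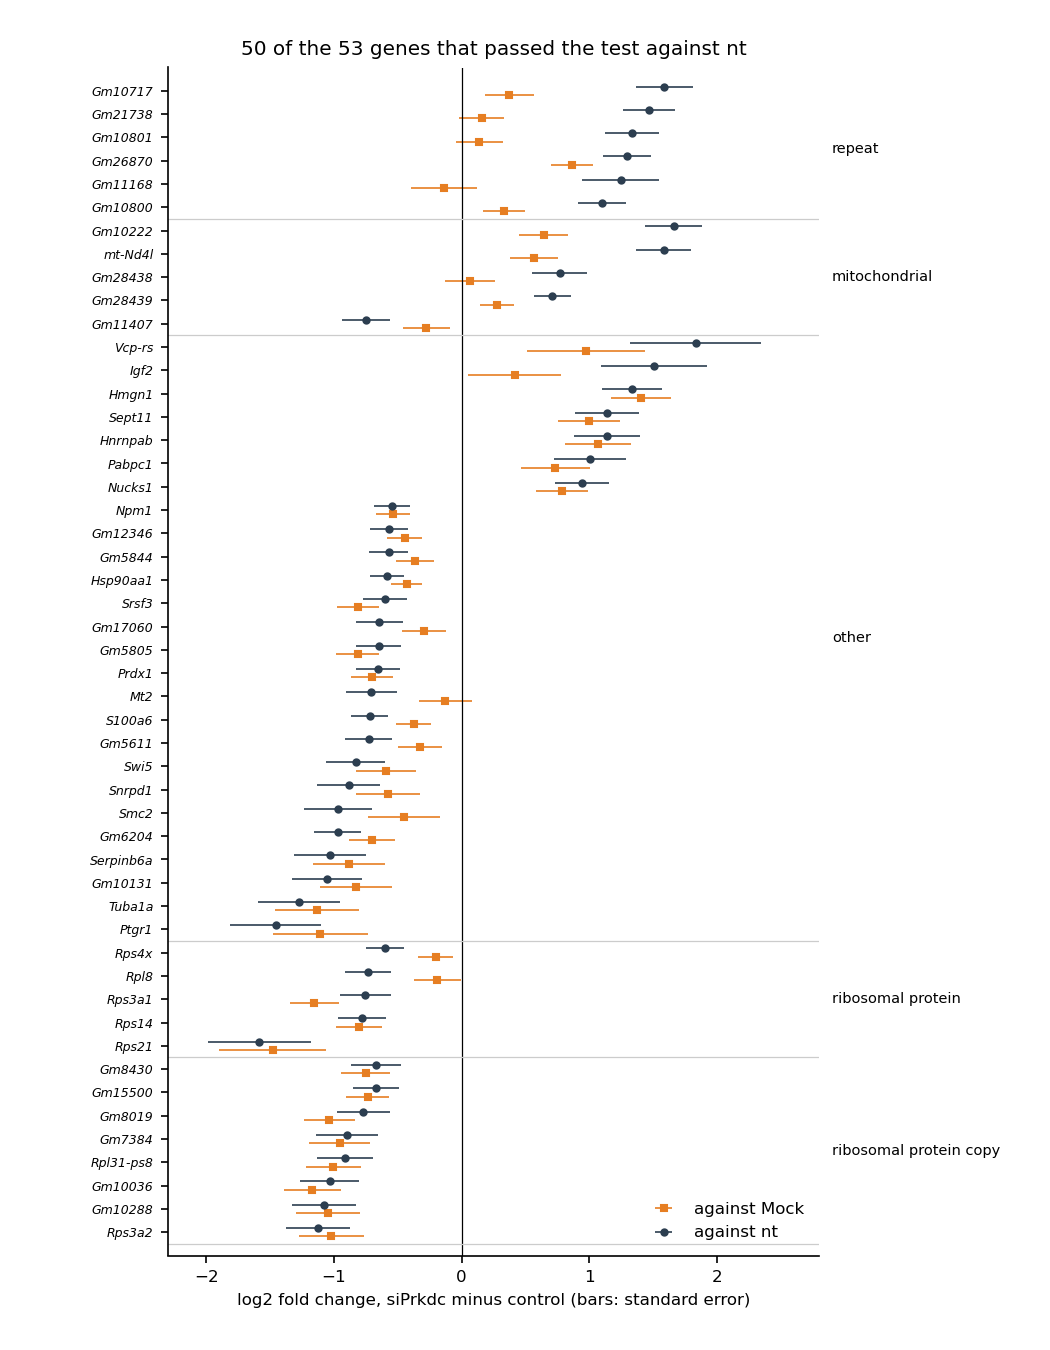
Log2 fold change (x axis) of 50 of the 53 genes that passed against nt, as siPrkdc minus nt (dark circles) and siPrkdc minus Mock (orange squares), with bars of 1 standard error and genes grouped by class. The 6 repeat genes and mt-Nd4l lie at 1.10 or more against nt but nearer 0 against Mock, and all ribosomal protein genes and copies drawn lie below 0 against both.

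The largest group among the higher genes was a family of predicted genes on chromosomes 2, 9 and 14 that share a tandem repeat. Its most abundant member, Gm26870 (ENSMUSG00000097312.1), is annotated as a long intergenic non-coding RNA on the minus strand of chr9:3000282-3038313. In an alignment of all tested transcripts, 12 other genes matched Gm26870 on the opposite strand with 73.3% to 89.2% identity, and these 13 are called the repeat genes here. Because Gm26870 was picked as the most abundant predicted gene past the threshold, the counts of this family against nt are a description and not evidence of their own. The repeat of Gm26870 has a unit of 234 bases, and shifted by that length its sequence matches itself at 81.5% of bases. This is the length and sequence type of the major (gamma) satellite, the DNA that fills the pericentromeric heterochromatin of mouse chromosomes. The unit is printed because it is what the 6 called repeat genes have in common. Capitals mark the run of 42 bases that all 6 contain without a mismatch on one strand or the other, and the sequence is that of the GENCODE vM21 transcript (GRCm38).

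Repeat unit of Gm26870: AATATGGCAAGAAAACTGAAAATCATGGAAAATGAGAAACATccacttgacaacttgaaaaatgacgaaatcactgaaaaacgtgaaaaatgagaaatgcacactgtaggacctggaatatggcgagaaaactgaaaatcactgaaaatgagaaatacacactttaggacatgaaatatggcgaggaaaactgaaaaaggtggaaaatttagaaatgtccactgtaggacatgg

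Gm26870 stood at 25583, 18481 and 21052 CPM in the siPrkdc libraries. In nt it stood at 10358, 7747 and 8374 CPM, and in Mock at 9419, 16343, 9541, 11891 and 12494 CPM. Every siPrkdc library was above every library of both controls. The log2 fold change was 1.30 ± 0.19 (SE, n = 3 against 3) against nt (edgeR adjusted p 2e-08) and 0.87 ± 0.16 against Mock (adjusted p 4.6e-05). Its siPrkdc mean was the highest of all 33 siRNA conditions, next to 21614 CPM in siEny2, and the lowest mean was that of siBard1 at 2292 CPM.

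The other 5 called repeat genes rose against nt and did not pass against Mock. Gm10800 (chr2:98666547-98667301) stood at 8180, 6606 and 7531 CPM in siPrkdc, at 3614, 2946 and 3823 CPM in nt and at 4696 to 7966 CPM in Mock. Gm21738 (chr14:19415857-19418930) stood at 2593, 2733 and 3123 CPM in siPrkdc, 1132, 733 and 1193 CPM in nt, and 2060 to 3536 CPM in Mock. For both genes siPrkdc lay above nt without overlap and overlapped Mock. The log2 fold changes against nt were 1.10 for Gm10800, 1.47 for Gm21738, 1.33 for Gm10801, 1.59 for Gm10717 and 1.25 for Gm11168, with edgeR adjusted p between 6.3e-09 and 0.0073. Against Mock the same genes had log2 fold changes of 0.33, 0.16, 0.14, 0.37 and -0.14, and none passed. Between Mock and nt themselves all 5 were higher in Mock and passed, for example Gm21738 with a log2 fold change of 1.31 and an adjusted p of 1.1e-07. For Gm26870 the Mock and nt libraries differed by 0.43 on the log2 scale, with an adjusted p of 0.20.

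Over all 13 repeat genes, 6 were higher and 0 lower against nt (0.564% of all tested genes were higher), with a median log2 fold change of 1.10 beside 0.00 over all tested genes. Against Mock Gm26870 alone passed (1.16% of all tested genes were higher), 0 of the 13 were called lower, and the median was -0.18 beside 0.05. Their share of all counts was 3.27%, 2.60% and 3.05% in siPrkdc, 1.41%, 1.11% and 1.40% in nt and, in Mock, 1.57% and 2.70% in replicate 1, 1.86% and 1.88% in replicate 2 and 2.30% in replicate 3. Within each replicate siPrkdc was above nt and above every Mock library, although over all replicates its range overlapped that of Mock. The siPrkdc mean share of 2.97% was the 2nd highest of the 33 siRNAs after siEny2 at 3.94%. In the untransfected time course the mean share was 1.69% at day 0 and 0.992% at day 6.

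The mitochondrial gene that rose was mt-Nd4l, which encodes a small subunit of respiratory complex I. It stood at 1764, 1868 and 2174 CPM in siPrkdc, at 899, 658 and 515 CPM in nt, and at 981, 1648, 951, 2085 and 1328 CPM in Mock. The siPrkdc libraries were above all nt libraries and overlapped the Mock libraries. Its log2 fold change was 1.58 ± 0.22 against nt (edgeR adjusted p 6.3e-09) and 0.57 ± 0.19 against Mock (adjusted p 0.058). Mock was itself above nt by 1.01 (adjusted p 0.0011). Gm10222, a nuclear copy on chromosome 1, moved with it at 1.66 ± 0.22 against nt and 0.64 ± 0.19 against Mock (adjusted p 0.024).

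Reads of these genes cannot be assigned to one or the other, because 265 of the 268 stretches of 30 bases in mt-Nd4l also occur in Gm10222. An example of such a stretch, shown because a read within it fits both genes, is the following, in which capitals mark that every base is shared.

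Run shared by mt-Nd4l and Gm10222: TCAGTAACTTCCCTAAACTCCAACTCCATA

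Most other mitochondrial genes did not pass. Of the 17 mitochondrial genes tested, mt-Nd4l alone passed against nt, and the median log2 fold change was 0.14. The ribosomal RNA mt-Rnr2, the most abundant transcript of the libraries, stood at 139011, 116684 and 114403 CPM in siPrkdc and 105430, 85323 and 76008 CPM in nt. The groups did not overlap, and its log2 fold change of 0.48 ± 0.16 had an adjusted p of 0.095. Among 14 nuclear copies, Gm28439 (a copy of mt-Nd4, 0.71) and Gm28438 (a copy of mt-Nd3, 0.77) also rose and Gm11407 (a copy of mt-Nd5, -0.75) fell. The mitochondrial share of counts was 28.8%, 26.6% and 26.4% in siPrkdc and 26.3%, 24.4% and 22.8% in nt, higher in siPrkdc within each replicate, and averaged 25.9% in Mock. Of the 15 mitochondrial genes of the fixed list, 1 was higher against nt here, 6 with the compared conditions alone, 5 by DESeq2 and 3 with relative log expression factors, and mt-Rnr2 passed in 5 of the alternative settings.

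The remaining higher genes included chromatin proteins that rose against both controls. Hmgn1, a nucleosome-binding protein that loosens chromatin, stood at 962, 767 and 712 CPM in siPrkdc. It stood at 316, 419 and 245 CPM in nt and at 284, 172, 404, 323 and 328 CPM in Mock. All 3 siPrkdc libraries were above all 8 control libraries, and the siPrkdc mean of 814 ± 132 CPM (SD, n = 3) was the highest of the 33 siRNAs, the next being 556 CPM in siMtf1. Its log2 fold change was 1.33 ± 0.24 against nt, 1.40 ± 0.23 against Mock and 1.13 ± 0.16 against the mean of the 32 other siRNAs, with edgeR adjusted p of 1.5e-05, 3.9e-06 and 5.9e-09. Hmgn1 lies on chromosome 16, as Prkdc does, but at the far end of it (chr16:96120618-96127729).

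Nucks1, a chromatin-bound DNA-binding protein that takes part in recombination repair, stood at 1363, 924 and 722 CPM in siPrkdc against 500, 643 and 384 CPM in nt and 432 to 697 CPM in Mock. Neither control overlapped siPrkdc, and its log2 fold changes were 0.94 ± 0.21 against nt (edgeR adjusted p 0.0029) and 0.79 ± 0.20 against Mock (adjusted p 0.0071). Without replicate 1 the change against nt was 0.69 with an adjusted p of 0.29, and without the block the adjusted p was 0.17. Hnrnpab, an RNA-binding protein of the nucleus, stood at 855, 570 and 385 CPM in siPrkdc, 200, 314 and 237 CPM in nt and 173 to 328 CPM in Mock. Its log2 fold change was 1.14 against nt and 1.07 against Mock, both past the threshold, and without replicate 1 the change against nt was 0.74 with an adjusted p of 0.40. Sept11, a septin of the cytoskeleton, rose by 1.14 against nt and 1.00 against Mock, with values of 1069, 806 and 405 CPM in siPrkdc and 466, 374 and 180 CPM in nt. Its lowest siPrkdc library lay within the nt range, although siPrkdc was above nt within each replicate. Its edgeR adjusted p against nt was 0.054 without replicate 1, 0.053 without replicate 2 and 0.21 without the block. For Hmgn1, Nucks1, Hnrnpab and Sept11 the siPrkdc value in replicate 1 was the highest of the 3.

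Pabpc1, the main cytoplasmic poly(A)-binding protein, Igf2, a fetal growth factor, and Vcp-rs, a processed copy of the AAA ATPase gene Vcp, rose against nt and did not pass against Mock. Pabpc1 stood at 829, 472 and 435 CPM in siPrkdc and 316, 359 and 180 CPM in nt, with log2 fold changes of 1.01 against nt and 0.74 against Mock. Igf2 stood at 160, 374 and 208 CPM in siPrkdc and 99.9, 89.7 and 73.5 CPM in nt, and its Mock libraries reached 317 CPM. Its log2 fold change was 1.51 against nt with an adjusted p of 0.025 and 0.41 against Mock with an adjusted p of 0.59. Vcp-rs had 10, 6 and 17 counts in siPrkdc and 4, 2 and 6 in nt, and its log2 fold change of 1.83 ± 0.51 was the largest of the 53 called genes. With Vcp-rs summed with Vcp, which it matches at 99.0% of bases, the change was 0.99 with an adjusted p of 0.10.

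**Figure D2:**
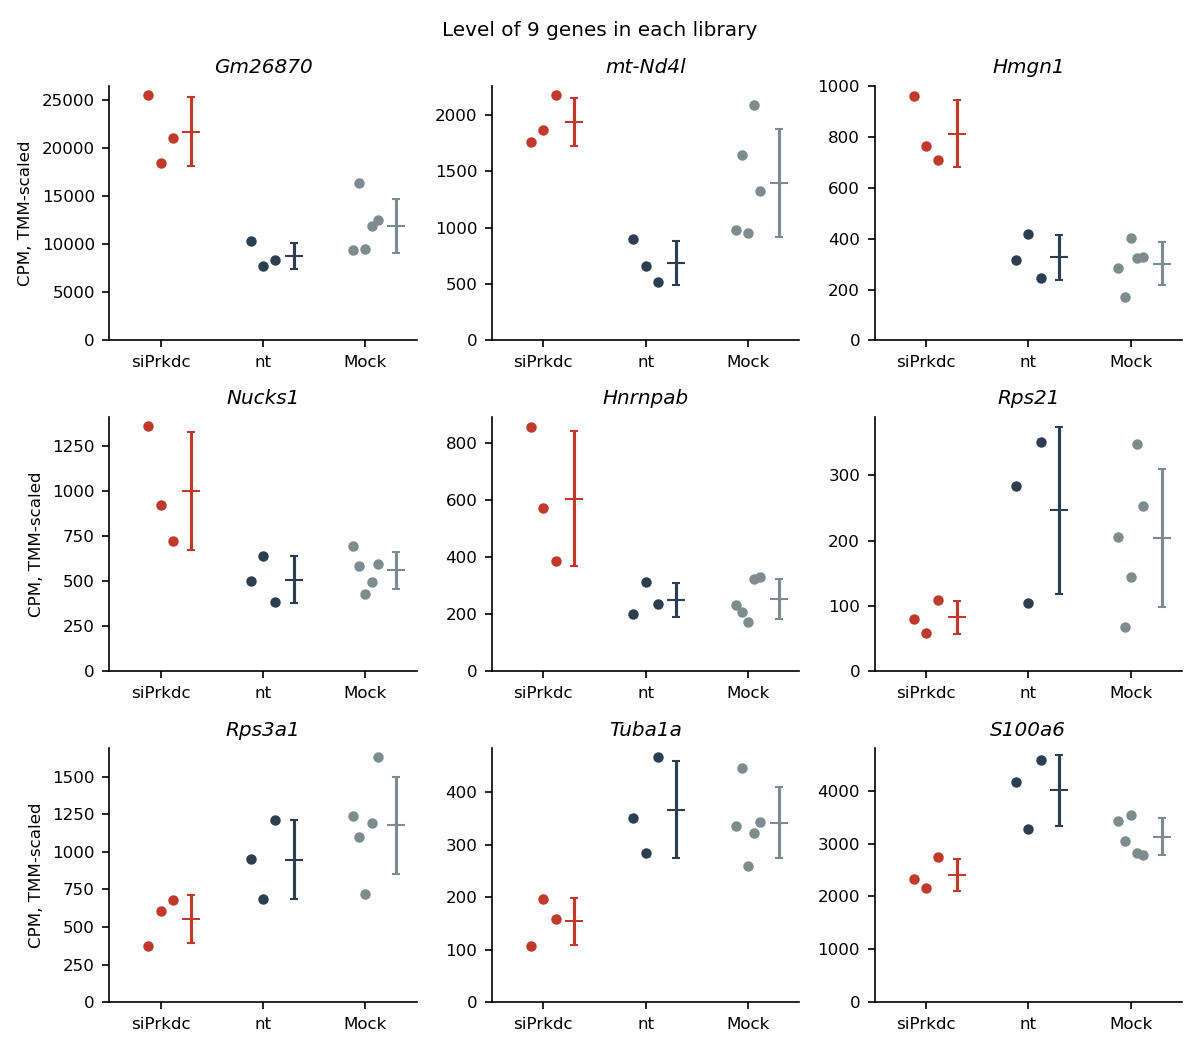
CPM, scaled by library size factors, of 9 genes in each library (points) of siPrkdc, nt and Mock, with the mean and SD of each group beside its points. Gm26870, Hmgn1 and S100a6 in siPrkdc lie apart from both controls, while the Mock points of mt-Nd4l reach the siPrkdc range and a Rps21 point of nt lies within it.

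Of the 36 lower genes 6 encoded proteins of the cytoplasmic ribosome, which makes most cell proteins, and none of these passed without the replicate block. Rps14, a protein of the small ribosomal subunit, stood at 695, 826 and 820 CPM in siPrkdc, at 1632, 1211 and 1291 CPM in nt and at 1142 to 1682 CPM in Mock. The siPrkdc libraries were below all 8 control libraries, and the log2 fold change was -0.78 ± 0.19 against nt (edgeR adjusted p 0.0072) and -0.80 ± 0.18 against Mock (adjusted p 0.0012). Rps21 had the largest fall of the called genes at -1.58 ± 0.40, with 80.2, 59.0 and 109 CPM in siPrkdc and 283, 105 and 351 CPM in nt. Its highest siPrkdc library was just above its lowest nt library. Its edgeR adjusted p was 0.12 without replicate 1, 0.021 without replicate 2 and 0.35 without replicate 3. Rps3a1 fell by 0.75 on the log2 scale against nt and by 1.16 against Mock, without overlap with either. Rpl8 (-0.73) and Rps4x (-0.60) fell against nt, and their values of -0.19 and -0.20 against Mock did not pass.

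Of the 10 copies of ribosomal protein genes that fell, 8 match Rpl11 (Gm10288, Gm10036, Gm7384), Rps3a1 (Rps3a2), Rpl31 (Rpl31-ps8), Rpl5 (Gm15500), Rps7 (Gm8019) and Rps27a (Gm8430) at 95.1% to 100% of bases. With so few differing bases their counts may hold reads of the parent gene, which was not tested here. Of the parents named, Rps3a1 alone passed against nt. Gm10036 stood at 267, 393 and 573 CPM in siPrkdc, 783, 793 and 1038 CPM in nt and 670 to 1403 CPM in Mock. Neither control overlapped siPrkdc, and its log2 fold changes were -1.03 against nt and -1.17 against Mock, both past the threshold. The largest fall of a called copy was that of Rps3a2 at -1.12.

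Over the 70 ribosomal protein genes tested, 6 fell and 0 rose against nt (1.19% of all tested genes fell and 0.564% rose), 54 of 70 had a negative log2 fold change, and the median was -0.29 beside 0.00 over all genes. Over the 229 copies 10 fell and 0 rose, 180 were negative and the median was -0.33. The share of all counts in the 70 genes was 3.07%, 3.14% and 4.21% in siPrkdc, 4.29%, 4.21% and 5.32% in nt, and 3.99% to 5.31% in Mock. Within each replicate siPrkdc was below nt, and its mean of 3.47% was the 32nd of 33 siRNAs, above only siWdr5 at 2.98%. The replicate 3 libraries had higher shares in both conditions, and without the replicate block no ribosomal protein gene or copy passed, while the medians were -0.28 and -0.31, with 54 of 70 genes and 179 of 229 copies negative. Without replicate 1, 2 or 3, 1, 4 and 1 ribosomal protein genes and 2, 4 and 5 copies fell.

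**Figure D3:**
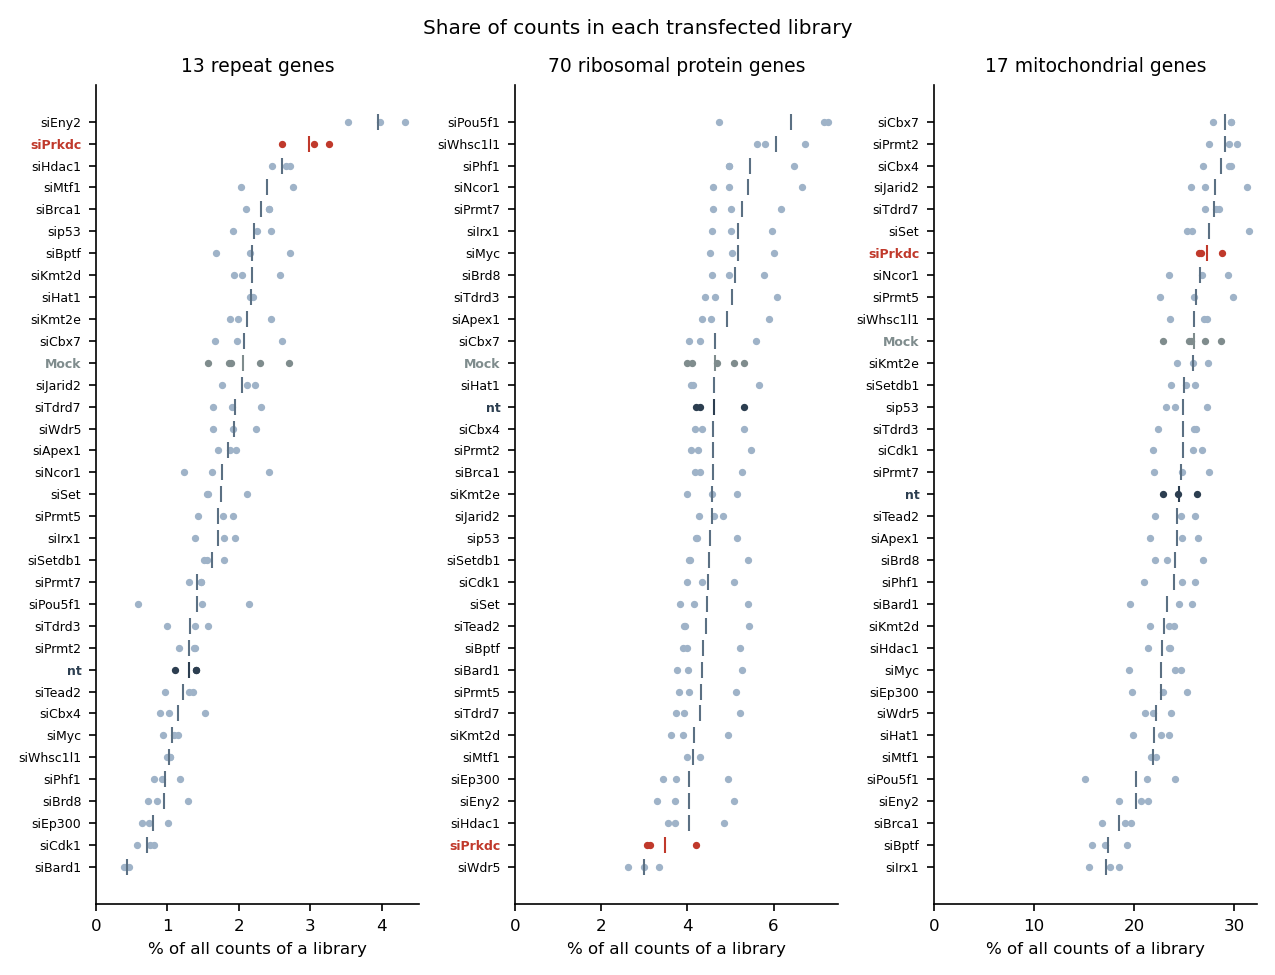
Percent of all counts of a library (x axis) in the 13 repeat genes, the 70 ribosomal protein genes and the 17 mitochondrial genes, with 1 row for each of the 33 siRNAs and both controls, 1 point a library and a tick at the mean. siPrkdc (red) is 2nd from the top for the repeat genes and next to last for the ribosomal protein genes.

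Among the other lower genes, S100a6, a calcium-binding protein abundant in fibroblasts, passed in all settings tried. It stood at 2326, 2163 and 2748 CPM in siPrkdc, at 4163, 3275 and 4583 CPM in nt and at 2791 to 3545 CPM in Mock, which left the siPrkdc libraries below all control libraries. Its log2 fold change was -0.72 ± 0.14 against nt (edgeR adjusted p 0.0003), -0.38 ± 0.14 against Mock (adjusted p 0.095) and -0.56 ± 0.11 against the other siRNAs (adjusted p 1.6e-04). Gm6204, a processed pseudogene, was the other lower gene that passed in all settings, at 829, 885 and 791 CPM in siPrkdc against 2015, 1735 and 1340 CPM in nt. It fell by 0.97 on the log2 scale against nt and by 0.70 against Mock. Gm5805, a near-identical copy of it, fell by 0.65.

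Npm1, the nucleolar chaperone of ribosome assembly, stood at 3582, 4030 and 5130 CPM in siPrkdc and 5729, 5997 and 6977 CPM in nt, with log2 fold changes of -0.54 against nt and -0.54 against Mock that both passed. Gm5611 (-0.73) and Gm17060 (-0.64), which resemble Npm1, also fell against nt. Hsp90aa1, the inducible form of the HSP90 chaperone, stood at 5507, 6527 and 7996 CPM in siPrkdc and 11191, 9362 and 9738 CPM in nt, without overlap. It fell by 0.58 against nt and by 0.43 against Mock, and its copies Gm12346 and Gm5844 by 0.57 each against nt. Prdx1, a peroxide-reducing enzyme, fell by 0.66 against nt and by 0.70 against Mock.

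RNA processing and cytoskeletal genes were further members. Srsf3, a splicing factor, stood at 962, 1180 and 1235 CPM in siPrkdc, 1799, 1944 and 1585 CPM in nt and 1854 to 2374 CPM in Mock, with log2 fold changes of -0.60 against nt and -0.81 against Mock. The groups did not overlap in either comparison. Snrpd1, a core protein of the spliceosome, fell by 0.88 against nt, and its -0.58 against Mock did not pass. Tuba1a, an α-tubulin, stood at 107, 197 and 158 CPM in siPrkdc and 350, 284 and 466 CPM in nt, and its siPrkdc mean was the lowest of the 33 siRNAs. Its log2 fold change was -1.27 ± 0.32 against nt and -1.31 ± 0.26 against the other siRNAs (edgeR adjusted p 0.011 and 1.4e-04). Tuba1a is close to Tuba1b in sequence (98.3% of aligned bases), and summed with its near-identical copies the change against nt was -0.46 with an adjusted p of 0.24.

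Ptgr1, an enzyme of prostaglandin breakdown, had the next largest fall of the called genes after Rps21, at -1.46 ± 0.35. Its values were 26.7, 216 and 158 CPM in siPrkdc and 300, 329 and 515 CPM in nt. Against Mock the log2 fold change of -1.11 had an adjusted p of 0.062. The edgeR adjusted p against nt was 0.053 without replicate 1, 0.0058 without replicate 2 and 0.31 without replicate 3. Serpinb6a, a protease inhibitor, fell by 1.03 against nt and by 0.88 against Mock. Gm10131, which matches 99.9% of the bases of Erh, fell by 1.05, and Mt2, a metallothionein, by 0.71 with overlapping groups. Swi5, a protein of homologous recombination, fell by 0.83, with 401, 354 and 376 CPM in siPrkdc and 783, 583 and 662 CPM in nt. Smc2, a subunit of condensin, fell by 0.97, with 187, 197 and 415 CPM in siPrkdc and 433, 538 and 719 CPM in nt. For both genes siPrkdc and nt did not overlap, and the values of -0.59 for Swi5 and -0.45 for Smc2 against Mock did not pass.

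The fixed gene lists on pathways held few called genes against nt. Of 156 tested members of all lists, 3 passed against nt, namely mt-Nd4l (higher), S100a6 and Smc2 (lower), beside the 1.76% of all genes that did. The list of DNA-PK and end joining held 18 genes, of which 17 had a row in the counts. In the main fit 0 were abundant enough to test. Their summed level was 241, 315 and 376 CPM in siPrkdc, 366, 404 and 278 CPM in nt, and 103 to 273 CPM in Mock, from 63, 83 and 38 counts. The siPrkdc and nt sums overlapped. Xrcc5, which encodes Ku80, stood at 0, 59.0 and 119 CPM in siPrkdc and 150, 135 and 123 CPM in nt, but also at 0 to 59.7 CPM in Mock. Parp1, an early sensor of DNA breaks, stood at 80.2, 59.0 and 49.4 CPM in siPrkdc and at 33.3, 59.8 and 24.5 CPM in nt.

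Of 30 genes of break signalling and homologous recombination 3 were tested and 0 passed, with a median log2 fold change of -0.39, which was 0.09 over the 8 genes tested without replicate 1 and 0.05 over all 30 with no filter. They included the checkpoint kinase Chek1 (-0.39 ± 0.47) and the break-binding protein Trp53bp1 (-0.75 ± 0.61). Of 29 p53 target genes 13 were tested and 0 passed, with a median of -0.14. The median was -0.41 without replicate 1, -0.19 without replicate 2 and 0.04 without replicate 3. Cdkn1a, which encodes the cell cycle inhibitor p21, stood at 775, 570 and 573 CPM in siPrkdc, 383, 404 and 343 CPM in nt and 254 to 800 CPM in Mock. Its groups did not overlap for nt, where the log2 fold change was 0.74 ± 0.24 with an adjusted p of 0.096, and it passed in 2 alternative settings (0.82 by DESeq2 and with the compared conditions alone). Ccng1, another p53 target, stood at 989, 963 and 1038 CPM in siPrkdc and 1332, 1481 and 1225 CPM in nt, with a log2 fold change of -0.41 and an adjusted p of 0.31. Phlda3, a p53-induced inhibitor of Akt, had the lowest mean of the 33 siRNAs, at 53.5, 59.0 and 79.1 CPM against 150, 120 and 147 CPM in nt. Its log2 fold changes were -1.03 against nt (adjusted p 0.30), -1.47 against Mock (adjusted p 0.025) and -1.40 against the other siRNAs (adjusted p 0.0054).

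The lists that follow reprogramming gave no called gene against nt apart from S100a6. The 33 tested mesenchymal genes had a median log2 fold change of 0.41 and the 17 contractile genes 0.35, beside the 0.00 of all genes. Against Mock the medians were 0.09 and 0.16, against the other siRNAs 0.07 and -0.07, and with the compared conditions alone, where 13 mesenchymal genes were tested, the mesenchymal median against nt was -0.01. The summed level of the mesenchymal list overlapped between siPrkdc (8555 to 8727 CPM) and nt (8345 to 9992 CPM). Vim, the intermediate filament of mesenchymal cells, stood at 1043, 845 and 959 CPM in siPrkdc and 716, 658 and 515 CPM in nt (0.64 ± 0.20, adjusted p 0.079). Col1a1, a fibroblast collagen, stood at 294, 315 and 306 CPM in siPrkdc and 167, 209 and 139 CPM in nt (0.88 ± 0.34, adjusted p 0.20). In both genes the groups did not overlap and the test did not pass, although Vim passed in 3 alternative settings (0.71 to 0.72 with relative log expression factors, by DESeq2 and with the compared conditions alone). Of 26 epithelial genes 3 were tested, all with negative values and a median of -0.47 against nt, while the list summed to 882, 963 and 731 CPM in siPrkdc and 666, 867 and 703 CPM in nt, and with no filter 17 of 26 were positive with a median of 0.01. Of 26 pluripotency genes only L1td1, an RNA-binding protein of pluripotent cells, was tested. It stood at 321, 138 and 148 CPM in siPrkdc, 50.0, 135 and 73.5 CPM in nt and 57.7 to 103 CPM in Mock, with a log2 fold change of 1.15 and an adjusted p of 0.33 against nt. Without replicate 1, whose siPrkdc library was the highest, the change was 0.54, and without replicate 2 it was 1.67. The siPrkdc mean was the highest of the 33 siRNAs, and the difference from the other siRNAs was 1.94 ± 0.39 with an adjusted p of 1.7e-04, and 1.65 to 2.29 with a replicate left out.

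Lists of the cell cycle and metabolism had medians between 0.03 and 0.25 against nt, beside 0.00 over all genes. These were 0.03 for 11 replication genes and 0.15 for 30 mitosis genes. They were 0.11 for 15 glycolysis genes and 0.25 for 13 target genes of the stress factor ATF4. In the same order the medians were 0.32, 0.46, 0.43 and 0.37 against Mock, beside 0.05 over all genes. Against the other siRNAs they were 0.19, 0.20, 0.42 and 0.33, beside 0.06. Without replicate 1 the mitosis and ATF4 medians against nt were -0.05 and -0.03, and without replicate 2 they were 0.25 and 0.44. Tubb5 (mitosis) passed against nt in 4 alternative settings and Pgam1 (glycolysis) in 3. Pcna, the sliding clamp of replication, stood at 214, 275 and 415 CPM in siPrkdc and 300, 284 and 351 CPM in nt. The values overlapped, and the log2 fold change was 0.03 ± 0.29. Of the 36 interferon genes 1 was tested (B2m, 0.40 ± 0.50, adjusted p 0.80).

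**Figure D4:**
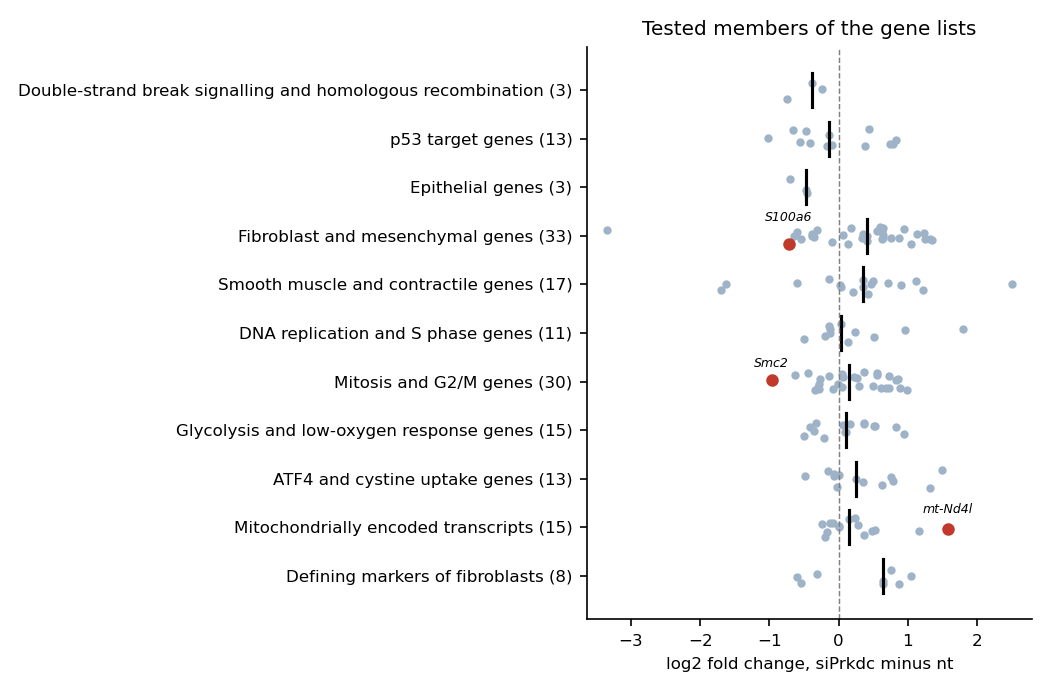
Log2 fold change (siPrkdc minus nt, x axis) of the tested members of each fixed list with 3 or more of them, 1 point a gene, with black lines at the list medians, a dashed line at the median of all genes and genes past the threshold in red. Only S100a6, Smc2 and mt-Nd4l are red.

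Mock served as a check on the nt libraries. Against Mock 146 genes (4.85%) passed, 35 higher (1.16%) and 111 lower (3.68%) in siPrkdc. Both comparisons share the siPrkdc libraries and are not independent. Of the 17 genes higher against nt 6 passed the same way against Mock, namely Gm26870, Gm10222, Hmgn1, Nucks1, Hnrnpab and Sept11. Of the 36 lower genes 22 did. Among the 17 higher genes 8 differed between Mock and nt themselves, all higher in Mock, and among the 36 lower genes 0 did. The 8 included mt-Nd4l and the called repeat genes other than Gm26870, which share sequence and are not separate cases. Both sets were picked by their difference from nt, so low or high nt values are part of that choice. The share of all tested genes that differed between Mock and nt was not determined. The lower genes against Mock included 51 ribosomal protein genes and copies and the S100 protein S100a4 (-1.46). Of the mitochondrial genes mt-Atp6 (-0.58) and mt-Co2 (-0.53) were lower and mt-Nd2 was higher. Of the mitosis genes H2afz was lower. Top2a, the topoisomerase of dividing cells (0.84), and Smc4, the partner of Smc2 in condensin (1.21), were higher. Their values against nt were 0.05 and 0.36, neither past the threshold. Without the replicate block 35 genes passed against Mock. Against nt and Mock pooled in a single contrast 125 genes (4.15%) passed, 32 higher (1.06%) and 93 lower (3.09%).

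The comparison with the mean of the 32 other siRNAs used neither control. It gave 151 genes (5.01%), 86 higher (2.85%) and 65 lower (2.16%). The smallest p-values among the higher genes belonged to Gm10222 (1.40 ± 0.14), mt-Nd4l (1.35 ± 0.14), Gm26870 (1.11 ± 0.12), Gm10801 (1.11 ± 0.14) and Gm10717 (1.15 ± 0.15), all with edgeR adjusted p of 6.6e-11 or less. Among the lower genes those of Rpl41 (-0.66 ± 0.13), Gm5586 (-0.90 ± 0.17) and Tuba1a were 3 of the 5 smallest, with adjusted p of 1.4e-04 or less. Gm5586, a copy of Rps3a1, and Rpl41, a protein of the large ribosomal subunit, did not pass against nt, at -0.55 (adjusted p 0.23) and -0.51 (adjusted p 0.085). Of the 13 repeat genes 7 were higher and of the 17 mitochondrial genes 7 were, among them mt-Rnr2 (0.59), mt-Rnr1 (0.37) and mt-Atp8 (1.08). Of the 65 lower genes 38 were ribosomal protein genes or copies, and of the 86 higher genes 7 were. The 3013 tested genes held 70 ribosomal protein genes and 229 copies. The glycolytic genes Gpi1, Pgam1 and Slc2a3 and the mitotic genes Anln, Smc4 and Tacc3 were also higher.

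The siRNAs against other genes of the damage response were compared with siPrkdc directly. Against siBrca1 97 genes (3.22%) passed, 50 higher (1.66%) and 47 lower (1.56%). The mesenchymal genes Sparc, Timp2, S100a4 and S100a6 and 3 contractile genes were lower in siPrkdc. The glycolytic genes Aldoa, Pgk1, Pkm and Ldha were higher, as were mt-Rnr2 (1.47) and mt-Rnr1 (1.16). L1td1 was higher by 3.84 on the log2 scale, and without replicate 3 by 3.22 with an edgeR adjusted p of 0.062. Of the 13 repeat genes Gm26870 alone was higher (0.66 ± 0.18), with all 13 positive and a median of 0.46.

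Against siBard1 235 genes (7.80%) passed, 122 higher (4.05%) and 113 lower (3.75%), the most of the 3 comparisons. All 13 repeat genes were higher in siPrkdc, with a median log2 fold change of 2.68. Their share of counts was 0.397% to 0.468% in siBard1, below every control library. Gm26870 was higher by 3.26 ± 0.21 (edgeR adjusted p 2e-35). Of the tested list members, 10 of 17 contractile and 9 of 33 mesenchymal genes were lower in siPrkdc and 7 of 15 glycolysis genes higher. Against sip53 39 genes (1.29%) passed, 18 higher (0.597%) and 21 lower (0.697%). Hmgn1 (1.01 ± 0.25), mt-Nd4l (1.09 ± 0.22) and Gm10222 (1.06 ± 0.22) were higher in siPrkdc and Tuba1a (-1.54 ± 0.33) lower, with adjusted p of 0.012 or less. Of the p53 targets Phlda3 was lower in siPrkdc than in sip53, with a log2 fold change of -1.90. Of the 33 mesenchymal genes 4 (Sparc, Dcn, Timp2 and Serpinh1) were lower. No repeat gene passed against sip53, and 9 of the 13 were positive.

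The untransfected time course gave the direction in which each gene moved during reprogramming. Of the 17 genes higher in siPrkdc than in nt 0 rose and 5 fell from day 0 to day 6, with a median change of -0.42 on the log2 scale. Of the 36 lower genes 20 rose and 2 fell, with a median of 0.63. Over all tested genes 10.7% rose and 11.5% fell, with a median of 0.05. The genes that rose over time and were lower in siPrkdc included Npm1 (1.35), Mt2 (4.29), Ptgr1 (1.82), Rps14 (1.05) and Hsp90aa1 (0.57). The mean of nt was above that of untransfected day 6 for 33 of the 36 lower genes and the mean of siPrkdc for 23. An example is Rps14, with 780 CPM in siPrkdc, 1378 CPM in nt and 597 CPM at day 6. For the 17 higher genes these numbers were 9 and 14. Both sets were picked by the difference between siPrkdc and nt, so these counts are a description. The share over all tested genes was not determined. The genes that fell over time and were higher included Gm26870 (-0.85), Gm10800 (-0.76) and mt-Nd4l (-0.75). Tuba1a was an exception, falling by 1.28 over time and also lower in siPrkdc.

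This was also summed over all genes. Each library was projected on the day 0 to day 6 difference averaged over the replicates. Positions were then scaled within each replicate, so that day 0 is 0 and day 6 is 1. The siPrkdc libraries lay at 0.980 ± 0.0466 (SD, n = 3, 0.936 to 1.03), nt at 1.06 ± 0.0698 and Mock at 1.02 ± 0.0537, and the means of the other siRNAs ranged from 0.722 to 1.17. The time course had means of 0.588, 0.626, 0.493, 0.775 and 0.885 on days 1 to 5, so position did not rise with each day. The siPrkdc mean was the 24th of 33 from the highest. It differed from the 103 other transfected libraries by -0.0254 (two-sided exact permutation test within replicates, p = 0.591), which is less than the spread between libraries. Against nt and Mock the difference was -0.0554 (exact permutation p = 0.0625), and against nt alone -0.0826 with p = 0.25, the smallest p that design allows. Within each replicate siPrkdc was below nt and below every Mock library, for example in replicate 2 at 0.936 against 0.992 in nt and 0.974 and 0.975 in Mock.

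**Figure D5:**
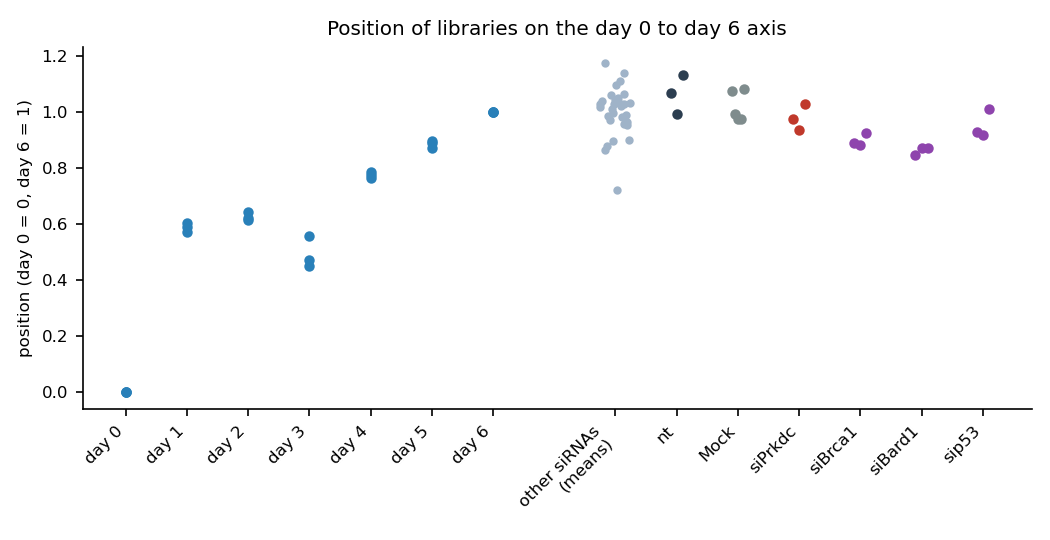
Position (y axis, day 0 = 0 and day 6 = 1) of each library of the untransfected time course and of siPrkdc, nt, Mock, siBrca1, siBard1 and sip53, and the mean of each other siRNA. The siPrkdc libraries (0.936 to 1.03) lie near the value of day 6, with 1 of them below all 8 libraries of nt and Mock and the others within their range.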

How the data were processed

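The authors sequenced 1 pool of barcoded CEL-Seq2 libraries per replicate, mapped reads to mm10 with Bowtie2 and counted unique molecular identifiers per GENCODE vM13 gene. The deposited table holds raw counts. A table deposited beside it holds log2 values that the authors normalized and corrected for batch after leaving out libraries, and it was used as an alternative. Each count column was given its condition by name, and the 127 libraries found in both tables, of 129 with counts, were kept. The 2 left out were a Mock library of 6403 counts and a siMtf1 library of 7981 counts, both of replicate 3. Of the 2 Mock columns of replicate 3, the kept one was matched to the log2 table by its correlation of 0.925, against 0.0321 for the other.

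Counts were fitted with edgeR 4.0.16 in R 4.3.3 (filterByExpr by condition, TMM scaling, quasi-likelihood test) over all 127 libraries, with a term per condition and per replicate, which left 3013 genes and 83 residual degrees of freedom (common dispersion 0.0158). The replicate number marks a shared sequenced pool per the labels. Deviations from the condition means correlated at a median of 0.101 between libraries with the same number and -0.0706 otherwise, and at 0.0632, 0.0928 and 0.291 between siPrkdc and nt. No pair of libraries of these conditions agreed within sampling noise (chi-square per degree of freedom 1.46 to 2.42). CPM used TMM-scaled library sizes. DESeq2 1.42.0 and limma 3.58.1 were alternatives, beside relative log expression factors, no filter, no block, each replicate left out, the compared conditions alone, copies summed and TMM without mitochondrial and repeat genes.

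Genes were placed by symbol in GENCODE vM21 (GRCm38), where 2965 of 3013 matched. Near-identical copies (1002 genes) had at least 95% identity over at least 50% of the shorter transcript. Repeat genes aligned with Gm26870 (BLAST+ 2.17.0) over at least 300 bases at 70% identity or more. The siRNA sequences came from the study's library list, and a further siRNA of the pool was not used here. Genes named were Prkdc, the 12 largest called changes in each direction with at least 50 CPM and the same sign in each replicate, called list members, the 5 smallest p-values in each direction against the other siRNAs, and up to 4 abundant members of a list with none called. The other called genes and list members called in another comparison were named after their values were seen, and 3 called genes are not reported here by name. The scripts were tested on simulated data. The members, gene lists and tests were chosen with earlier results of these data known.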

Additional observations from a re-analysis of the deposited data

Results flagged for a closer look

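The total count of the highest of the 5 Mock libraries, 83089, stood apart from the other 4, which held 38925 to 49873, by Dixon's criterion at the 95% level (critical value 0.71 for 5 samples). It is the only Mock library of replicate 3. The criterion was applied to 36 quantities in Mock, the only group large enough, and chance passes about 1 in 20.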

How the results depend on the processing

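Of the 53 genes called against nt, 10 passed in 11 alternative settings and also with near-identical copies summed: Gm26870, Gm10717, Gm10800, Gm10801, Gm21738, Gm10222, mt-Nd4l and Hmgn1 (higher) and S100a6 and Gm6204 (lower). The repeat genes among these 10 share a sequence, as do mt-Nd4l and Gm10222, so the 10 are not all separate changes. None of the 53 changed sign, and 0 of 464 values of named genes reversed. The number called against nt was 42 with no filter, 43 with all libraries, 54 with copies summed, 51 by limma and 79 by DESeq2, and 25 to 32 with a replicate left out.

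Without the replicate block, which the number on the labels pairs with a sequenced pool, 12 genes passed against nt, 35 against Mock, 14 against nt and Mock together, 50 against the other siRNAs, 35 against siBrca1, 135 against siBard1 and 10 against sip53. With no filter 52 passed against Mock, 73 against nt and Mock together, 37 against siBrca1, 117 against siBard1 and 16 against sip53. Against Mock, 89 passed with near-identical copies summed and 50 by limma. With all libraries 79 passed against nt and Mock together. Against sip53, 74 passed with the compared conditions alone and 69 by DESeq2. With a replicate left out the counts were 54 to 100 against Mock, 44 to 84 against nt and Mock together, 72 to 79 against the other siRNAs, 31 to 55 against siBrca1, 81 to 163 against siBard1 and 8 to 20 against sip53. Members of the fixed lists called against nt were 3, and 8 with relative log expression factors, 13 with the compared conditions alone and 11 by DESeq2. Fewer genes were tested with the compared conditions alone, fewer libraries were fitted with a replicate left out, and for the other settings the cause was not tested.

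The Prkdc ratio was 1.35 to 1.91 with a replicate left out and 1.13 against nt and Mock. Relative log expression factors shifted the median of all genes by 0.07 on the log2 scale. At 48070 to 143156 counts a library, no end joining gene was abundant enough to test in the main fit. With no filter 16 were fitted and 0 passed, with a median log2 fold change of 0.14 against nt. Near-identical copies, and genes that share the satellite repeat, may share reads, and which reads they share was not tested.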
